A study of Homo sapiens with 8 samples.

Results

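ESRG, LINC00678, LINC00458, LINC01108 and LINC-ROR are long noncoding RNAs that mark human pluripotent stem cells. They were taken from the deposited tables by the RefSeq accessions that belong to these symbols, and the values of a gene's transcripts were summed. All 5 of 5 were in the tables, out of 25558 gene symbols, and none was near 0. The libraries were made from total RNA of H1, an established line of human embryonic stem cells, at passages 40-60. Doxycycline switched on a short hairpin RNA in them, which was either against EXOSC3, a subunit of the RNA exosome (shEXOSC3), or non-silencing (shNS). Each line was sampled without doxycycline and with doxycycline, at 5 and at 7 days. That gave 8 groups with 1 library each. All 8 groups grew without feeder cells on Matrigel, in medium that contained puromycin, and each hairpin was represented by 1 line. No group had a replicate, so no test was run, and differences are given by size.

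Long terminal repeats of HERVH, a family of endogenous retroviruses in the human genome, are known to act as promoters and first exons of many long noncoding RNAs in human embryonic stem cells. POU5F1 and NANOG, transcription factors of the pluripotent state, are known to occupy these repeats, and the RNAs made from them decline when the cells differentiate. ESRG and LINC-ROR are well-known examples, and LINC-ROR is known for promoting the reprogramming of somatic cells. Exons that derive from one repeat family resemble each other, so a fragment from such an exon can fit more than 1 of these genes. The RNA exosome is the nuclease complex that processes and degrades many nuclear RNAs.

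In the deposited tables, positions are on hg19 and often cover a merged locus. The authors' way of dividing fragments that fit several genes is not known from the sources at hand. LINC-ROR (NR_048536) stood alone at chr18:54721804-54739350. LINC00458 had the transcripts NR_108062 and NR_108063 at chr13:54698459-54707006. LINC01108 (NR_108096, with NR_108097 near 0) lay at chr6:14280358-14285685. ESRG (NR_027122) was listed within chr3:54156693-55108584, a locus of 5 transcripts that includes the calcium channel subunit gene CACNA2D3, and GENCODE types ESRG as sense intronic. LINC00678 (NR_102708) was listed within chr11:27528399-27743605, a locus of 24 transcripts that includes the neurotrophin gene BDNF and its antisense gene BDNF-AS. GENCODE types the other 4 as long intergenic noncoding RNAs.

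The hairpin and the cell identity were checked first. In shEXOSC3, EXOSC3 stood at 25.2 FPKM (fragments per kilobase of transcript, scaled to library size) without and 11.3 with doxycycline on day 5, and at 25.2 and 12.3 on day 7. Its levels in shNS were 27.3 FPKM without and 27.8 with doxycycline on day 5, and 30.3 and 27.4 on day 7. The pluripotency factor POU5F1 lay at 139 to 171 FPKM in all 8 libraries. Of 11 exosome subunits, all had a mean of at least 1 FPKM, and only EXOSC3 was past 2-fold within a line, on day 5 in shEXOSC3. LIN28A, an RNA-binding protein of pluripotent cells, lay at 436 to 633 FPKM. The spacing of low values gave depths of about 14500000 to 37000000 fragments per library. The 3 most abundant transcripts took 23.8 to 27.6% of the FPKM total on day 5 and 6.21 to 7.16% on day 7, so levels on different days are not on the same scale.

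LINC00678 and LINC00458 were the most abundant of the 5 RNAs, and LINC-ROR the least. FPKM is per length, so levels of different genes were set side by side. Scaling by length does not correct for fragments that fit several genes, whose division is not known. ESRG and LINC00678 were also listed within merged loci, so the order and ranks are approximate. Means over the 8 libraries were 193 FPKM for LINC00678, 148 for LINC00458, 71.2 for ESRG, 18.5 for LINC01108 and 6.60 for LINC-ROR. Of 547 long noncoding RNA genes with a mean of at least 1 FPKM, LINC00678 ranked 7, LINC00458 ranked 9, ESRG 19, LINC01108 49 and LINC-ROR 114. Of the 89 such genes whose symbol begins with LINC, LINC00678 and LINC00458 were ranks 1 and 2. The genes above LINC00678 were 6 snoRNA host genes, led by SNHG29 at a mean of 880 FPKM.

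The ranges of LINC00678 (124 to 264 FPKM) and LINC00458 (90.1 to 210) overlapped, and those of LINC00458 and ESRG (43.4 to 112) also did. LINC01108 (10.4 to 34.0 FPKM) stayed below ESRG in every library. Its range overlapped that of LINC-ROR (2.36 to 15.1 FPKM), though LINC-ROR was below it in each library. The highest library exceeded the lowest by 2.12 times for LINC00678, 2.33 for LINC00458, 2.58 for ESRG, 3.28 for LINC01108 and 6.40 for LINC-ROR.

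**Figure D1:**
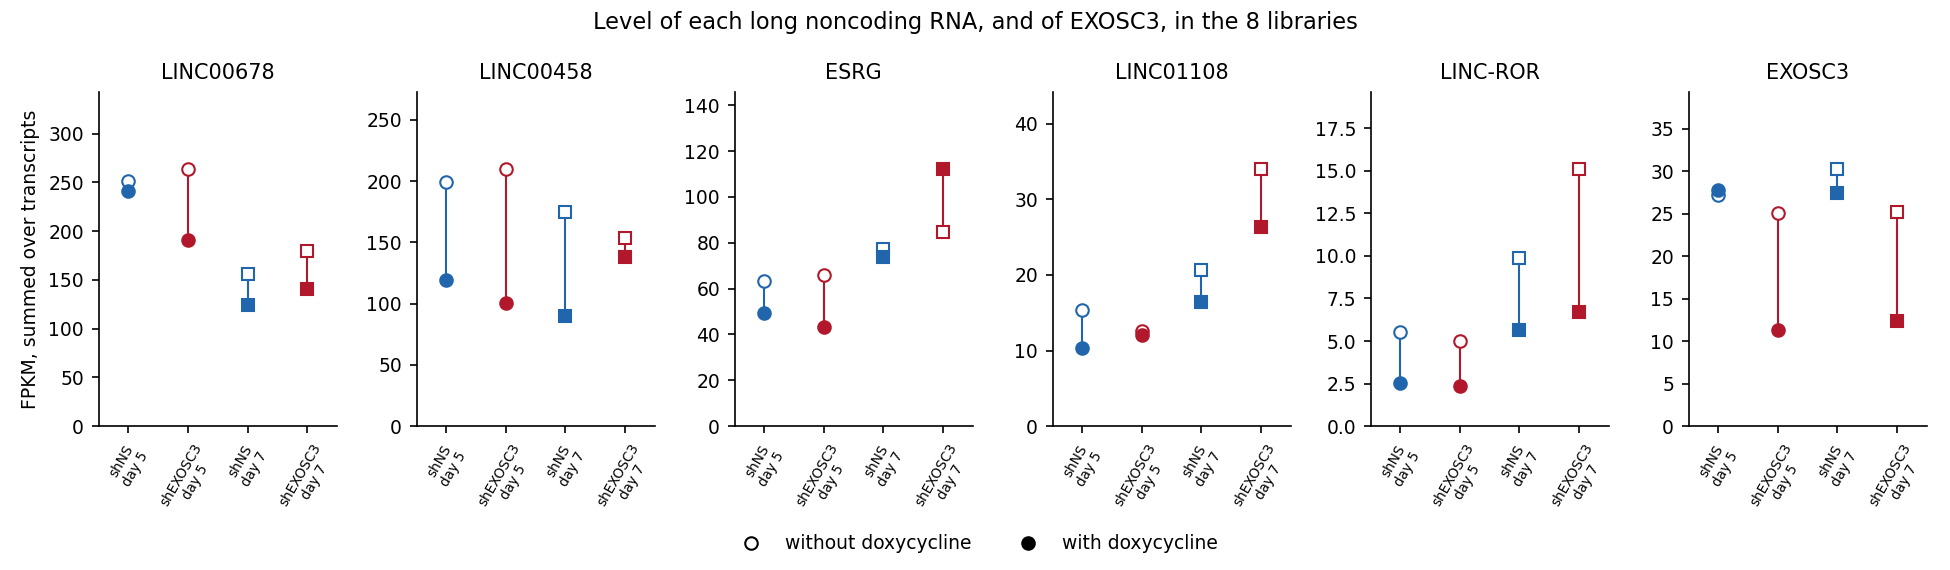
FPKM summed over transcripts (linear axes from 0) for each RNA and for EXOSC3, with untreated libraries as open and doxycycline libraries as filled symbols, 1 library each. LINC-ROR is lower with doxycycline in all 4 pairs, from 9.85 to 5.66 FPKM in shNS on day 7 for example, whereas EXOSC3 is lower by that much in shEXOSC3 alone.

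Levels with and without doxycycline were compared within a line and day, as log2 of the ratio of FPKM + 1. This scale understates differences of low genes. Beside each ratio the doxycycline level is also given as a percentage of the untreated level, with a 95% exact binomial interval from the estimated fragment counts. Those intervals cover counting error only and hold no spread between cultures. Of the 20 ratios (5 RNAs, 2 lines, 2 days), 19 were below 0, in the line with the non-silencing hairpin as well as in shEXOSC3. The RNAs below 0 in all 4 tables were 4 of 5, the exception being ESRG. Of the 13116 genes with a mean of at least 1 FPKM, 12.4% were below 0 in all 4. The median of the 5 log2 ratios was -0.59 in shEXOSC3 and -0.52 in shNS on day 5, and -0.35 and -0.32 on day 7. The median over all genes lay within 0.01 of 0 in each table. Past a 2-fold difference (a log2 ratio of at least 1 in size) there was 1 RNA in shEXOSC3 on day 5 (LINC00458, at -0.96 when FPKM were rescaled without the 3 most abundant transcripts), against 0.717% of all genes that were lower by that much. In shEXOSC3 on day 7 there was also 1 (LINC-ROR), against 1.04%. In shNS there were 0 on either day, against 0.602% and 0.846%.

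LINC-ROR was the RNA whose level with doxycycline was about equally low in every comparison. Its level went from 5.01 to 2.36 FPKM in shEXOSC3 and from 5.51 to 2.55 in shNS on day 5. On day 7 it went from 15.1 to 6.73 FPKM in shEXOSC3 and from 9.85 to 5.66 in shNS. All 4 doxycycline libraries lay below their own untreated library. The doxycycline level was 47.0% of untreated (interval 36.6 to 60.0) in shEXOSC3 and 46.2% (38.8 to 55.1) in shNS on day 5. On day 7 it was 44.6% (38.9 to 51.0) in shEXOSC3 and 57.5% (48.8 to 67.7) in shNS. These rested on 99 to 748 fragments per library, and every interval stayed below 100%. Log2 ratios were -0.84, -0.88, -1.06 and -0.70 in that order. At most 1.42% of all genes had a lower ratio in any of the 4 tables. LINC-ROR was the only one of the 5 RNAs with a ratio of -0.5 or less in all 4 tables, as had 26 genes (0.198%) of all. With a pseudocount of 5 FPKM it reached -0.5 in 1 of the 4 tables, with ratios of -0.44 and -0.48 on day 5 and -0.78 and -0.48 on day 7.

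LINC00458 was lower with doxycycline in 3 of the comparisons and close to its untreated level in the fourth. It went from 210 to 101 FPKM in shEXOSC3 and from 199 to 120 in shNS on day 5. The day 7 levels were 175 and 90.1 FPKM in shNS, but 153 and 138 in shEXOSC3, without and with doxycycline. On day 7 the doxycycline library of shEXOSC3 thus stood above that of shNS. As percentages of untreated these were 47.9% (interval 45.0 to 51.1) and 60.0% (57.4 to 62.8) on day 5, in shEXOSC3 and shNS. On day 7 they were 90.2% (85.1 to 95.5) in shEXOSC3 and 51.4% (48.0 to 55.0) in shNS. Log2 ratios were -1.05 and -0.73 on day 5 and -0.15 and -0.95 on day 7, in the same order. Both annotated transcripts were lower with doxycycline in all 4 tables. NR_108062 went from 131 to 61.4 FPKM and NR_108063 from 78.7 to 39.3 in shEXOSC3 on day 5. In shEXOSC3 on day 7 they went from 117 to 107 and from 36.4 to 31.2 FPKM.

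ESRG was lower with doxycycline in both lines on day 5 and higher in shEXOSC3 on day 7. On day 5 it went from 65.9 to 43.4 FPKM in shEXOSC3 and from 63.1 to 49.4 in shNS. On day 7 it went from 84.9 to 112 FPKM in shEXOSC3 and from 77.3 to 73.8 in shNS. This was the only one of the 20 ratios above 0. The doxycycline level was 65.9% (interval 62.4 to 69.5) and 78.3% (75.2 to 81.5) of untreated on day 5, in shEXOSC3 and shNS. By day 7 it was 132% (127 to 137) in shEXOSC3 and 95.5% (91.2 to 99.9) in shNS. The log2 ratio of 0.40 in shEXOSC3 on day 7 exceeded that of 90.2% of all genes.

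LINC00678, the most abundant of the 5, showed smaller differences. It went from 264 to 191 FPKM in shEXOSC3 and from 251 to 241 in shNS on day 5. On day 7 it went from 179 to 140 FPKM in shEXOSC3 and from 156 to 124 in shNS. The doxycycline libraries were 72.5% (interval 68.4 to 76.9) and 96.1% (92.1 to 100.3) of untreated on day 5, and 78.3% (73.3 to 83.6) and 79.8% (74.0 to 86.0) on day 7. Counting error alone thus did not separate the shNS libraries of day 5.

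LINC01108 was measured on 121 to 404 fragments per library. It went from 12.6 to 12.0 FPKM in shEXOSC3 and from 15.3 to 10.4 in shNS on day 5, and from 34.0 to 26.4 and from 20.6 to 16.5 on day 7. These were 95.2% (interval 73.5 to 123) and 67.7% (55.8 to 82.2) of untreated on day 5. On day 7 they were 77.6% (66.4 to 90.6) and 80.0% (64.6 to 99.0). The day 5 value of shEXOSC3 was within counting error of no difference, and its sign turned (log2 ratio 0.02) when FPKM were rescaled without the 3 most abundant transcripts.

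**Figure D2:**
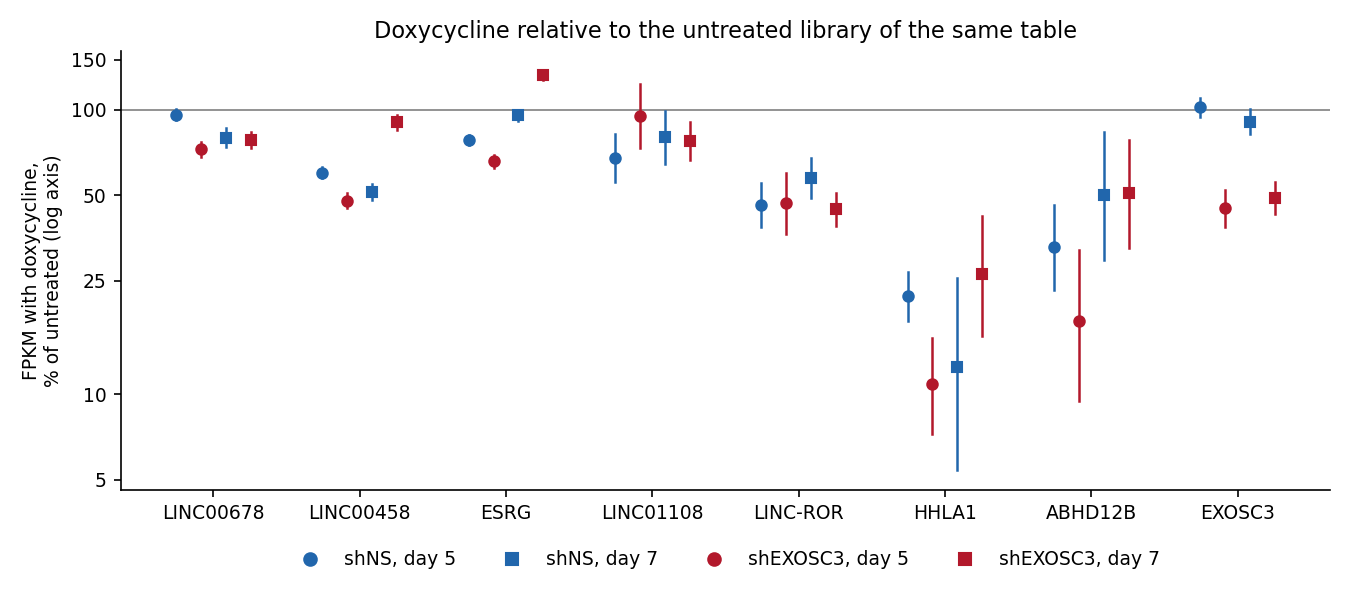
FPKM with doxycycline as a percentage of the untreated library of the same table (log axis), with 95% intervals for counting error only and 1 library per value. The 4 values of LINC-ROR lie between 44.6 and 57.5%, and those of EXOSC3 separate into 45.0 and 48.9% in shEXOSC3 against 102 and 90.6% in shNS.

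The authors' deposited table for each line and day holds a p and a q from 1 library against 1 library. Only those of LINC-ROR and of the more abundant transcript of LINC00458 are given. The authors' p of the other LINC00458 transcript was larger for each line and day. Those of ESRG, LINC00678 and LINC01108 are not reported here. For LINC-ROR the authors' deposited tables gave p of 0.02345 and 0.0012 on day 5 and 0.0023 and 0.01 on day 7, in shEXOSC3 and shNS, with q of 0.384 to 0.765. For NR_108062 of LINC00458 the authors' deposited tables gave p of 0.00395, 0.0041, 0.70545 and 0.0002, in the same order, with a smallest q of 0.129. No q of any transcript was under 0.05 in the authors' deposited tables, where the smallest was 0.0683.

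To compare the lines, the log2 ratio of shNS was subtracted from that of shEXOSC3 for each day, which gave the adjusted difference. No RNA (0 of 5) passed a 2-fold adjusted difference on either day, against 2.43% of all genes on day 5, 3.96% on day 7 and 0.435% on both days in the same direction. EXOSC3 stood at -1.11 and -0.84 on this scale. The largest adjusted difference of the 5 RNAs was that of LINC00458 on day 7, 0.80, which exceeded that of 96.6% of all genes. On day 5 it was -0.32. ESRG had -0.24 on day 5 and 0.46 on day 7. Rescaling FPKM without the 3 most abundant transcripts moved the day 5 values to -0.10 for ESRG, -0.17 for LINC00458 and -0.26 for LINC00678. The order of signs of ESRG and LINC00458, below 0 on day 5 and above 0 on day 7, was also seen in 20.9% of all genes. LINC00678 had -0.40 and -0.03, and its sign on day 7 turned (0.18) when the doxycycline libraries were compared across tables. LINC01108 had 0.46 and -0.05, with 0.65 on day 7 across tables. LINC-ROR had 0.04 and -0.35, with -0.08 on day 5 and 0.21 on day 7 across tables. The medians of the 5 were -0.24 on day 5 and -0.03 on day 7, where the median over all genes was -0.01 on day 7 and nearer to 0 on day 5.

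**Figure D3:**
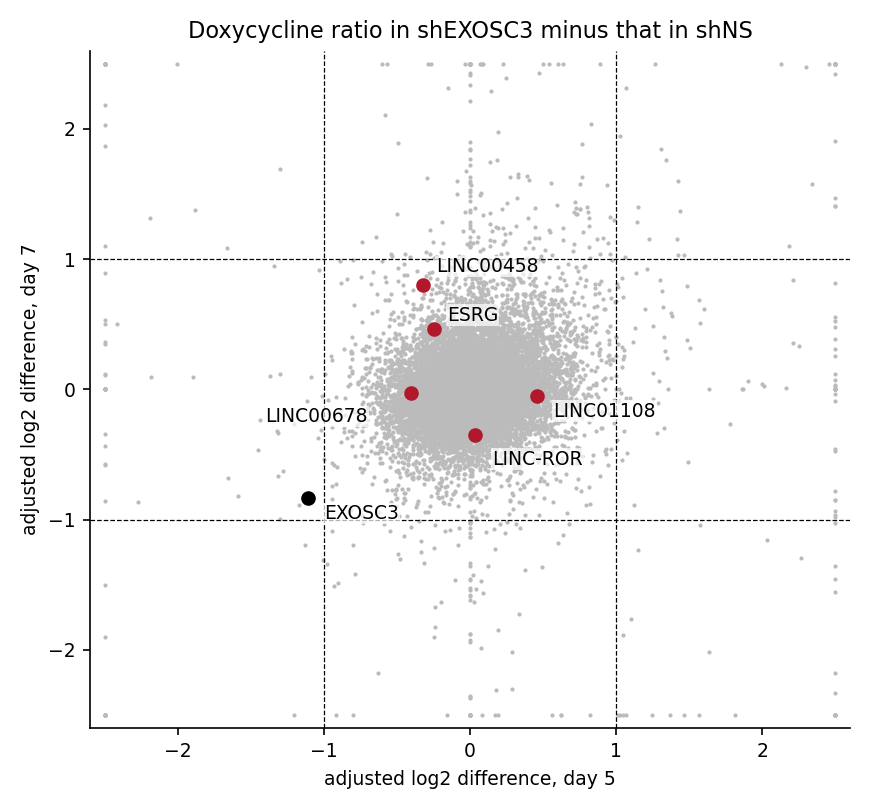
Adjusted log2 difference on day 5 (horizontal) and day 7 (vertical) for all genes tested (grey), the 5 RNAs (red) and EXOSC3 (black); dashed lines mark a 2-fold difference and values beyond 2.5 in size are drawn at the edge. All 5 RNAs lie inside the dashed lines, with LINC00458 closest to one at 0.80 on day 7.

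The untreated libraries of the lines differed little for 3 of the RNAs. Untreated shEXOSC3 over untreated shNS was 1.04 on day 5 and 1.10 on day 7 for ESRG, 1.05 and 1.15 for LINC00678, and 1.05 and 0.875 for LINC00458. It was 0.826 and 1.65 for LINC01108 and 0.909 and 1.53 for LINC-ROR. For LINC01108 and LINC-ROR the difference between untreated lines on day 7 was thus as large as several of the doxycycline differences.

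Between days, LINC-ROR, LINC01108 and ESRG were higher on day 7 in all 4 pairs of libraries of the same line and treatment, as were 33.6% of all genes. LINC00678 was lower in all 4, as were 44.2% of all genes. The log2 difference of day 7 over day 5 was 0.74 to 1.42 for LINC-ROR, 0.41 to 1.36 for LINC01108 and 0.29 to 1.35 for ESRG. It was -0.95 to -0.44 for LINC00678. A 2-fold higher level on day 7 was found for 2 of the RNAs (LINC-ROR and LINC01108) between untreated shEXOSC3 libraries, against 9.48% of all genes. Between the doxycycline libraries of shEXOSC3 it was found for 3 (ESRG as well), against 8.21%, but for 1 (ESRG, 1.03) after the rescaling described next, with 0.95 for LINC-ROR and 0.77 for LINC01108, and in shNS for 0, against 7.14% without and 8.07% with doxycycline. LINC00458 was lower in 3 pairs and higher (0.46) between the doxycycline libraries of shEXOSC3. Tables of the days were made separately. With FPKM rescaled to a common total without the 3 most abundant transcripts, an alternative chosen after seeing the data, all 20 signs remained, with ranges of 0.57 to 1.25 for LINC-ROR, 0.22 to 1.18 for LINC01108, 0.10 to 1.03 for ESRG and -1.12 to -0.74 for LINC00678.

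ABHD12B, which encodes an abhydrolase domain protein and has a known HERVH-driven transcript in stem cells, was also lower with doxycycline in all 4 tables. It went from 3.49 to 0.63 FPKM in shEXOSC3 and from 3.41 to 1.12 in shNS on day 5. The day 7 levels went from 2.51 to 1.28 FPKM in shEXOSC3 and from 2.10 to 1.05 in shNS. The doxycycline level was 18.1% (interval 9.45 to 32.1) and 33.0% (23.3 to 46.2) of untreated on day 5, from 14 to 102 fragments per library. On day 7 it was 50.9% (32.7 to 78.2) in shEXOSC3 and 50.0% (29.6 to 83.2) in shNS.

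Another gene known for transcripts that run from an HERVH repeat into coding exons is HHLA1. Its levels relative to untreated were below those of ABHD12B in all 4 tables. The intervals of these genes overlapped in each table but that of shNS on day 7, and HHLA1 rested on 9 to 396 fragments per library. HHLA1 went from 4.21 to 0.46 FPKM in shEXOSC3 and from 4.39 to 0.97 in shNS on day 5, and from 1.17 to 0.31 and from 0.95 to 0.12 on day 7. These were 10.8% (interval 7.23 to 15.7) and 22.1% (18.1 to 26.9) of untreated on day 5, and 26.5% (16.0 to 42.2) and 12.5% (5.43 to 25.5) on day 7. SCGB3A2, a secretoglobin gene with a chimeric HERVH transcript, went from 89.0 to 52.0 FPKM in shEXOSC3 but from 63.8 to 71.1 in shNS on day 5. Its adjusted differences were -0.92 and -0.06. RPL39L, a ribosomal protein paralog, went from 67.9 to 87.5 FPKM in shNS on day 5, and its adjusted differences were -0.51 and -0.14. Of this list of 4 (ABHD12B, HHLA1, SCGB3A2 and RPL39L), 2 were below 0 in all 4 tables, and the medians were -1.11 and -0.45 on day 5 and -0.48 and -0.44 on day 7, in shEXOSC3 and shNS.

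Pluripotency factors, the known regulators of these RNAs among them, were also mostly lower with doxycycline. Their medians were smaller in size than those of the 5 RNAs, though nearly equal in shNS on day 7 (-0.30 against -0.32). Single factors could be lower than some of the RNAs, as DPPA2 was. Of 20 core factors listed, 19 were in the tables and 17 had a mean of at least 1 FPKM; TDGF1 was not analysed here. Of these 17, 11 were below 0 in all 4 tables, and the medians were -0.22 and -0.21 on day 5 and -0.16 and -0.30 on day 7, in shEXOSC3 and shNS. SOX2, a core transcription factor, had ratios of -0.55 and -0.22 on day 5 and -0.53 and -0.16 on day 7. NANOG had 0.05 and -0.16 on day 5 and -0.41 and -0.54 on day 7. POU5F1 had -0.11 and -0.02 on day 5 and -0.14 and -0.30 on day 7. SOX2 had the lowest mean adjusted difference of the list, with -0.34 on day 5 and -0.37 on day 7. DPPA2, a chromatin-associated protein of pluripotent cells, went from 24.9 to 11.7 FPKM in shEXOSC3 on day 5, the only core factor past 2-fold within a line. It was also lower in shNS, with ratios of -1.02 and -0.59 on day 5 and -0.73 and -0.59 on day 7, in shEXOSC3 and shNS. Its adjusted differences were -0.43 and -0.14. The part of these factors in the levels of the 5 RNAs was not tested.

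Of 10 genes listed as regulators of HERVH, 9 had a mean of at least 1 FPKM and 3 were below 0 in all 4 tables. TRIM28, a corepressor that silences endogenous retroviruses, had ratios of 0.12 and 0.04 on day 5 and -0.13 and -0.11 on day 7. SETDB1, the histone methyltransferase that acts with it, had -0.08 and -0.04 on day 5 and 0.09 and 0.08 on day 7. EP300, a histone acetyltransferase, had the highest mean adjusted difference of the list over both days, with 0.18 and 0.30, though NANOG was higher on day 5 (0.20) and KLF4, another pluripotency factor, on day 7 (0.31). SOX2 had the lowest mean.

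Other long noncoding RNAs linked to stem cells or differentiation did not share the low ratios as a group, apart from shNS on day 5. Of 19 listed, 12 had a mean of at least 1 FPKM. Of these 12, 2 were below 0 in all 4 tables, against 12.4% of all genes, and 9 were below 0 in shNS on day 5. Their medians were 0.10 and -0.24 on day 5 and -0.01 and -0.03 on day 7, in shEXOSC3 and shNS. LNCPRESS2 had the highest adjusted differences on average, 0.49 and 0.54, with levels of 200 to 274 FPKM in shEXOSC3 on day 7. LINC00545 had the lowest, 0.12 and -0.97. MALAT1, an abundant nuclear RNA, was the only one past a 2-fold adjusted difference, with 1.12 on day 5 and -0.89 on day 7. TUNAR, LNCPRESS1 and LINC01405 were not analysed here.

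Markers of differentiated cells were low or absent for most lineages. For definitive endoderm 0 of 6 markers reached a mean of 1 FPKM, and their summed level was 0.87 to 2.08 FPKM over the 8 libraries. SOX17 and FOXA2 were at 0.05 FPKM or less in each library. CER1 went from 0.29 to 1.36 FPKM with doxycycline in shEXOSC3 on day 7, and from 0.48 to 0.31 in shNS. Its adjusted difference was -0.22 on day 5 and 1.05 on day 7, at levels near the floor. CXCR4 went from 0.78 to 1.21 FPKM in shEXOSC3 on day 5 and from 0.95 to 0.46 on day 7. For trophectoderm and amnion 1 of 7 did (KRT7), with a sum of 7.77 to 11.1 FPKM. For neuroectoderm 3 of 8 did (NES, FABP7 and OTX2, which stem cells also express), with PAX6 and SOX1 below 1 FPKM in every library and a sum of 96.9 to 144 FPKM. On days 5 and 7, adjusted differences were 0.29 and -0.23 for NES, 0.56 and -0.47 for OTX2 and -1.17 and -0.89 for FABP7, a fatty acid-binding protein, with medians of 0.29 and -0.47. For mesendoderm 3 of 8 did (NODAL, WNT3 and FOXH1), with TBXT at 0.03 FPKM or less and a sum of 9.78 to 26.8 FPKM. The mesendoderm sum was highest, 26.8 FPKM, in the day 5 doxycycline library of shEXOSC3, where FOXH1 alone had 23.2 FPKM. EOMES, MIXL1, GSC and MESP1 each had 0.36 FPKM or less in that library. Adjusted differences on days 5 and 7 were 0.17 and 1.14 for NODAL, 0.11 and 0.32 for WNT3 and 0.71 and 0.46 for FOXH1. For fibroblast and stromal cells 4 of 8 did (COL1A1, COL1A2, POSTN and THY1), with LUM and DCN at 0 in all 8 libraries and a sum of 97.3 to 226 FPKM. THY1 alone held 74.1 FPKM of the lowest and 197 FPKM of the highest sum. The core pluripotency list summed to 2039 to 3173 FPKM and was lower with doxycycline in all 4 pairs. In bulk RNA, fewer cells of a kind and less RNA per cell cannot be told apart, and the part of cell composition in the levels of the 5 RNAs was not tested.

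Genes around the RNAs had much lower levels for 2 of the loci. CACNA2D3, which overlaps ESRG, had a mean of 2.21 FPKM. Its ratios were 0.37 and -0.06 on day 5 and -0.04 and -0.39 on day 7, in shEXOSC3 and shNS, where those of ESRG were -0.59, -0.35, 0.40 and -0.07. BDNF had a mean of 6.95 FPKM and BDNF-AS of 1.54, beside 193 FPKM for LINC00678 in the merged locus. Farther from LINC00678 but within 200 kb, CCDC34, LGR4 and LIN7C had means of 32.0, 33.6 and 42.6 FPKM. BDNF (-0.23 to -0.01) and CCDC34 (-0.57 to -0.16) had ratios below 0 in all 4 tables, as LINC00678 did. LGR4 had -0.56 to -0.18 in 3 tables and 0.22 in shNS on day 7. LIN7C had -0.20 in shEXOSC3 on both days and 0.09 and 0.14 in shNS. CD83, next to LINC01108, had a mean of 4.77 FPKM. WDR7, next to LINC-ROR, had a mean of 4.61 FPKM and ratios of -0.07 to 0.17, where those of LINC-ROR were -1.06 to -0.70. The labels and headers do not tell whether strand was used in counting. How far reads of overlapping genes were kept apart is thus not known.

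The 5 RNAs did not follow a common pattern over the 8 libraries. Pearson's r of log2(FPKM + 1) is given as a description over 8 libraries that share lines, days and tables. It takes in the difference between days, whose levels are not on the same scale. It thus does not describe the direction of the ratios within tables. It was 0.90 between LINC01108 and LINC-ROR, 0.84 between ESRG and LINC01108, 0.77 between ESRG and LINC-ROR and 0.55 between LINC00678 and LINC00458. It was -0.56 between ESRG and LINC00678. Among 12994 genes the pattern nearest to LINC-ROR was that of ZNF878 (0.99), a zinc finger gene with 7.54 FPKM without and 3.33 with doxycycline in shEXOSC3 on day 7, followed by PKP2 and SPAG5. For LINC00458 it was PYGL (0.99), the liver form of glycogen phosphorylase, with 26.9 FPKM without and 14.7 with doxycycline in shEXOSC3 on day 5, followed by EFNA3 and AKIRIN1. For ESRG the nearest were FEM1B, ARFGEF1 and PDCD2 (0.96 each), for LINC00678 PRKCQ-AS1, PEX11A and TTC39C (0.99 each), and for LINC01108 MAGEB17 (0.98), YTHDF1 (0.98) and NUAK1 (0.97).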

How the data were processed

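ScriptSeq v2 libraries were prepared from total RNA of H1 cells after ribosomal RNA removal (Ribo-Zero) and addition of spike-in RNA, per the labels' protocols; the tables hold 0 spike-in entries. CASAVA 1.8, TopHat and Cufflinks with hg19 (GRCh37) are named in the submitters' processing notes. For the other versions, the annotation release and the use of strand, these sources give nothing. Per the file headers, each of the 4 tables holds the authors' FPKM of 49235 RefSeq transcripts for an untreated and a doxycycline library, beside a p-value and a q-value computed by the authors.

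Accessions were matched to symbols through a RefSeq table for 48147 transcripts (97.8%), and FPKM were summed per symbol. Genes were kept at a mean of at least 1 FPKM over the 8 libraries with no failed or too deep transcript, which left 13116. Ratios used a pseudocount of 1 FPKM and were formed within a table. A gene was past the threshold at a log2 value of at least 1 in size, and no test was run since each group had 1 library. The worth of 1 fragment was read from the spacing of low FPKM; 73.8 to 76.2% of these values lay within 0.1 of a whole number of fragments, so counts and their exact Clopper-Pearson intervals at 95% are approximate. Locus starts were taken to count from 0. This matched the listed transcript length at 2785 loci, against 284 when counted from 1. Transcript lengths and gene types came from GENCODE 29, and LINC00678 was represented by its longest transcript. Python 3.11.15, pandas 2.3.3, numpy 2.4.6 and scipy 1.17.1 were used, and the ratio and depth steps were tested on simulated data.

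Named genes were the 5 RNAs, EXOSC3, POU5F1, NANOG and SOX2, the 3 genes nearest each RNA in pattern, genes within 200 kb, and the highest and lowest mean adjusted difference of each list, some of which are not reported here. DPPA2, TRIM28, SETDB1, KLF4, LIN28A and MALAT1 were named after their values were seen. ABHD12B and RPL39L were among the genes named outside these rules. Of the genes with chimeric HERVH transcripts, intervals were computed only for ABHD12B and HHLA1, which were below 0 in all 4 tables. SCGB3A2 and RPL39L, above 0 in shNS on day 5, were given none. The members, lists and alternatives were chosen with earlier results of these data known. Alternatives were pseudocounts of 0.1 and 5 FPKM, the transcript with the highest mean, centring on the median gene, rescaling without the 3 most abundant transcripts, no minimum or a minimum of 5 FPKM, and comparing doxycycline libraries across tables. No column of per-sample values was left unused.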

Additional observations from a re-analysis of the deposited data

How the results depend on the processing

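Groups share no replicate numbers in the titles, so no replicate block was fitted. Ratios were formed within the 4 pairs of libraries of the same line and day, and no test was run over these pairs, which differ in line or day. No library was left out, since each group had 1. No adjusted difference of the 5 RNAs passed 2-fold under any of the alternatives. Signs of the 30 values of the RNAs (20 ratios and 10 adjusted differences) were all kept with pseudocounts of 0.1 and 5 FPKM, the transcript with the highest mean, centring, and either other minimum. Much of this was fixed in advance. A minimum only selects genes, so it left the values of the RNAs as they were. A pseudocount cannot turn the sign of a ratio, only that of an adjusted difference. ESRG, LINC00678 and LINC-ROR had 1 transcript each, so the choice of transcript could not change them. After rescaling 29 were kept, and 6 of the 10 adjusted differences when doxycycline libraries were compared across tables. RNAs past 2-fold within shEXOSC3 on day 5 were 1, against 2 with a pseudocount of 0.1 FPKM and 0 after rescaling. Within shNS on day 5 they were 0, against 1 with a pseudocount of 0.1 FPKM. Within shEXOSC3 on day 7 they were 1, against 0 with a pseudocount of 5 FPKM, and within shNS on day 7 they were 0, against 1 with the transcript with the highest mean. The cause of these moves was not tested.

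Of all genes, 57 passed the adjusted 2-fold rule on both days, against 93 with a pseudocount of 0.1 FPKM and 139 with the transcript with the highest mean. Within shEXOSC3 it was 50 genes, against 101 with 0.1 and 22 with 5 FPKM. Within shNS it was 28, against 48 with 0.1 FPKM and 61 with the transcript with the highest mean. Adjusted differences of EXOSC3 were -1.63 and -1.37 with the transcript with the highest mean. LINC-ROR, at 99 to 748 fragments per library, was the RNA most affected by the pseudocount; its ratio in shEXOSC3 on day 5 was -0.44 with 5 FPKM.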

Other observations

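LINC-ROR was one of 26 genes, of 13116, whose ratio of doxycycline over none was -0.5 or less in all 4 tables; these genes were chosen after their values were seen. DPPA5, a protein of pluripotent cells, had the lowest mean ratio, with -1.78 and -1.20 on day 5 and -1.08 and -1.11 on day 7, in shEXOSC3 and shNS. CNTN1, a neural cell adhesion molecule, had -1.49, -1.10, -1.35 and -0.88 in that order. The metallothionein genes MT1X and MT1G, whose proteins bind metal ions, were both among the 26. MT1X had -1.18, -0.71, -0.79 and -0.97. The chemokine gene CCL26 had -1.84, -0.98, -0.93 and -0.63. STOM, an integral membrane protein, had -1.23, -0.91, -1.20 and -0.53. The long noncoding RNA LINC00707 had -0.55, -1.02, -0.82 and -0.94. DPPA2, HHLA1, ABHD12B and ZNF878, which had the pattern nearest to that of LINC-ROR, were also among them.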
